A study of Mus musculus with 30 samples.

Results

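The 34 genes described here encode chaperones, folding enzymes and quality control factors of the endoplasmic reticulum (ER) and the sensors of the unfolded protein response (UPR). They were chosen by gene symbol from what their products are known to do, with earlier results of these data known. They were matched by Ensembl identifier among the 55401 genes of 3 count tables. All 34 were found in each table, and all 34 passed the filter on low counts there. All groups were wild-type mice of the C57BL/6 strain (B6 in the labels), with no allele or transgene named, and the tissue was the hypothalamus. The fasting table holds mice that were fed (3 libraries), fasted for 24 h (3), fasted for 72 h (3) or kept at 18 C, called cold in the labels, during a 72 h fast (3). The refeeding table holds mice refed after a 72 h fast for 1 h (3), 12 h (3) or 1 week (4). The 1-month table holds mice refed for 1 month after a 72 h fast (4) and fed controls (4). The sources used here give neither the animals' ages, nor the housing temperature of the other groups, nor whether libraries stand for separate animals, so p-values measure the spread between these libraries, which may be in part technical.

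Proteins that enter the secretory pathway are folded in the ER by the Hsp70 chaperone BiP and its helpers, by the lectin chaperones calnexin and calreticulin, and by protein disulphide isomerases. When unfolded proteins build up, the sensors IRE1, PERK and ATF6 start the UPR. IRE1 splices the Xbp1 message, and XBP1 and the cleaved form of ATF6 raise transcription of chaperone and degradation genes, while PERK slows translation and leads to ATF4. Neurons and glia that make peptides, receptors and myelin place a steady load on this machinery. Gene counts measure the summed message of a gene, so neither the splicing of Xbp1 nor the cleavage or phosphorylation of a sensor was measured.

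Chaperone genes of this response are known to carry the ER stress response element in their promoters, which ATF6 and XBP1 bind together with NF-Y. Promoters of RefSeq (GRCm38.p6, 250 bases before to 50 after each gene's start) were at hand for 29 of the 34 genes. The element was searched on both strands as CCAAT, 9 bases of any kind and then CCACG, and 8 of the 29 genes (27.6%) held it: Hspa5, Dnajc3, Hsp90b1, Calr, Canx, Pdia6, Creld2 and Syvn1. Over all 27025 genes with a promoter there, 37 (0.137%) held it, and over all 32851 promoters 39 (0.119%). Because genes of this kind are already known to carry the element, the higher share among the members is a description only. A second form, ATTGG, 1 base of any kind and then CCACG, was in Herpud1 and, after the start, in Dnajb11 (2 of 29 genes, against 12 of 27025, 0.0444%). The core TGACGTGG of the UPR element was in 0 of the 29 genes and in 193 (0.714%) of all. The 3 motifs share the letters CCACG or CGTGG and can overlap. The 7 sequences below are shown because they belong to genes whose levels the results turn on, 5 of which were lower after the long fast and higher after a week of food, while Syvn1 and Herpud1 fell between 1 h and 1 week of refeeding. Each is the stretch just before the RefSeq start, read 5′ to 3′ on the strand of the gene, with the match in capitals (the reverse complement where the match is on the other strand).
Hspa5, chr2:34771940-34772089, plus strand: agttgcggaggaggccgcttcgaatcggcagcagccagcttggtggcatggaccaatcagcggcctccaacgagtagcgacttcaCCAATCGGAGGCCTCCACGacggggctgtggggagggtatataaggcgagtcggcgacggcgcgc
Hsp90b1, chr10:86705445-86705664, minus strand: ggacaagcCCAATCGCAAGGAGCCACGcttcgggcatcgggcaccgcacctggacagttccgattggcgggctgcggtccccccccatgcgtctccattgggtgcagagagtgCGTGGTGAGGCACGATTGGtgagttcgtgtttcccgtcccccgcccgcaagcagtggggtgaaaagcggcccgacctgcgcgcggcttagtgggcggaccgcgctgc
Calr, chr8:84846932-84847101, minus strand: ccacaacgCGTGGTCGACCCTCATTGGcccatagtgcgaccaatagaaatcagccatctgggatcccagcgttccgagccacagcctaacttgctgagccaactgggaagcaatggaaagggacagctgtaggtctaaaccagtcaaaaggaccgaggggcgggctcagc
Canx, chr11:50325674-50325823, minus strand: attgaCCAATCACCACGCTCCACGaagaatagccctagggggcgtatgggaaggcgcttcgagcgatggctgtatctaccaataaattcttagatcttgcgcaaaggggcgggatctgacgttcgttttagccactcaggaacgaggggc
Pdia6, chr12:17266439-17266588, plus strand: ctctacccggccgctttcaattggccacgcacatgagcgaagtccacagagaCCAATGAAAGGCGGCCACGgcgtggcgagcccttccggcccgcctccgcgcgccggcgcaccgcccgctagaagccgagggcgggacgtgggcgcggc
Syvn1, chr19:6046426-6046575, plus strand: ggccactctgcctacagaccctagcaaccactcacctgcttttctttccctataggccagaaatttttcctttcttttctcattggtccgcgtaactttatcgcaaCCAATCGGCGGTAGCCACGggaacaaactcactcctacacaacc
Herpud1, chr8:94386279-94386428, plus strand: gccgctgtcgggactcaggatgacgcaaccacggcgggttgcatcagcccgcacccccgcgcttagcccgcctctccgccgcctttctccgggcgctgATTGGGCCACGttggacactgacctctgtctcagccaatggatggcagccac
Hsp90b1 held 2 matches and each other sequence 1. A match describes letters and does not show that a factor binds there.

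Expression is given as CPM, the count of a gene scaled to a common library size (TMM), and a change as an edgeR log2 fold change (second group over first) with its standard error. A gene was called where its Benjamini-Hochberg adjusted p over all genes tested in that comparison was below 0.05. Total counts per library ranged from 27.1 M to 43.4 M in the fasting table, 26.1 M to 64.3 M in the refeeding table and 9.35 M to 13.8 M in the 1-month table. In the refeeding table the 1-week libraries were deeper, at 46.9 M to 64.3 M. Those at 1 h had 28.5 M to 33.1 M and those at 12 h 26.1 M to 34.1 M. Depth and the 1-week group cannot be told apart there, and the part of depth was not tested. The fewest counts stood behind Sdf2l1, with 62 to 168 in the fasting libraries, 106 to 407 in the refeeding libraries and 48 to 116 in the 1-month libraries. All 12 hypothalamic markers, Avp, Oxt, Pomc, Agrp and Hcrt among them, were detected in each library. They summed to 172 to 354 CPM in the fasting, 346 to 585 CPM in the refeeding and 841 to 1124 CPM in the 1-month libraries. Striatal neuron markers summed to 570 to 1484, 614 to 2087 and 359 to 415 CPM there. Detection does not show that the dissections were alike, and this was not tested. In the fasting and refeeding tables reads on stretches shared by overlapping genes appear not to have been counted, since genes nested in another were mostly at 0 there (244 of 265 with the host on the same strand, 428 of 465 with it on the other), against 0 of 6470 genes without overlap. Of the members, Hsp90b1 had 60.8% of its exon bases overlapped by other genes (30.9% of its span), Dnajb11 38.1% (21.3%), Manf 15.9% (92.3%) and Herpud1 12.9% (5.98%). Levels are therefore read within a table only.

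**Figure D1:**
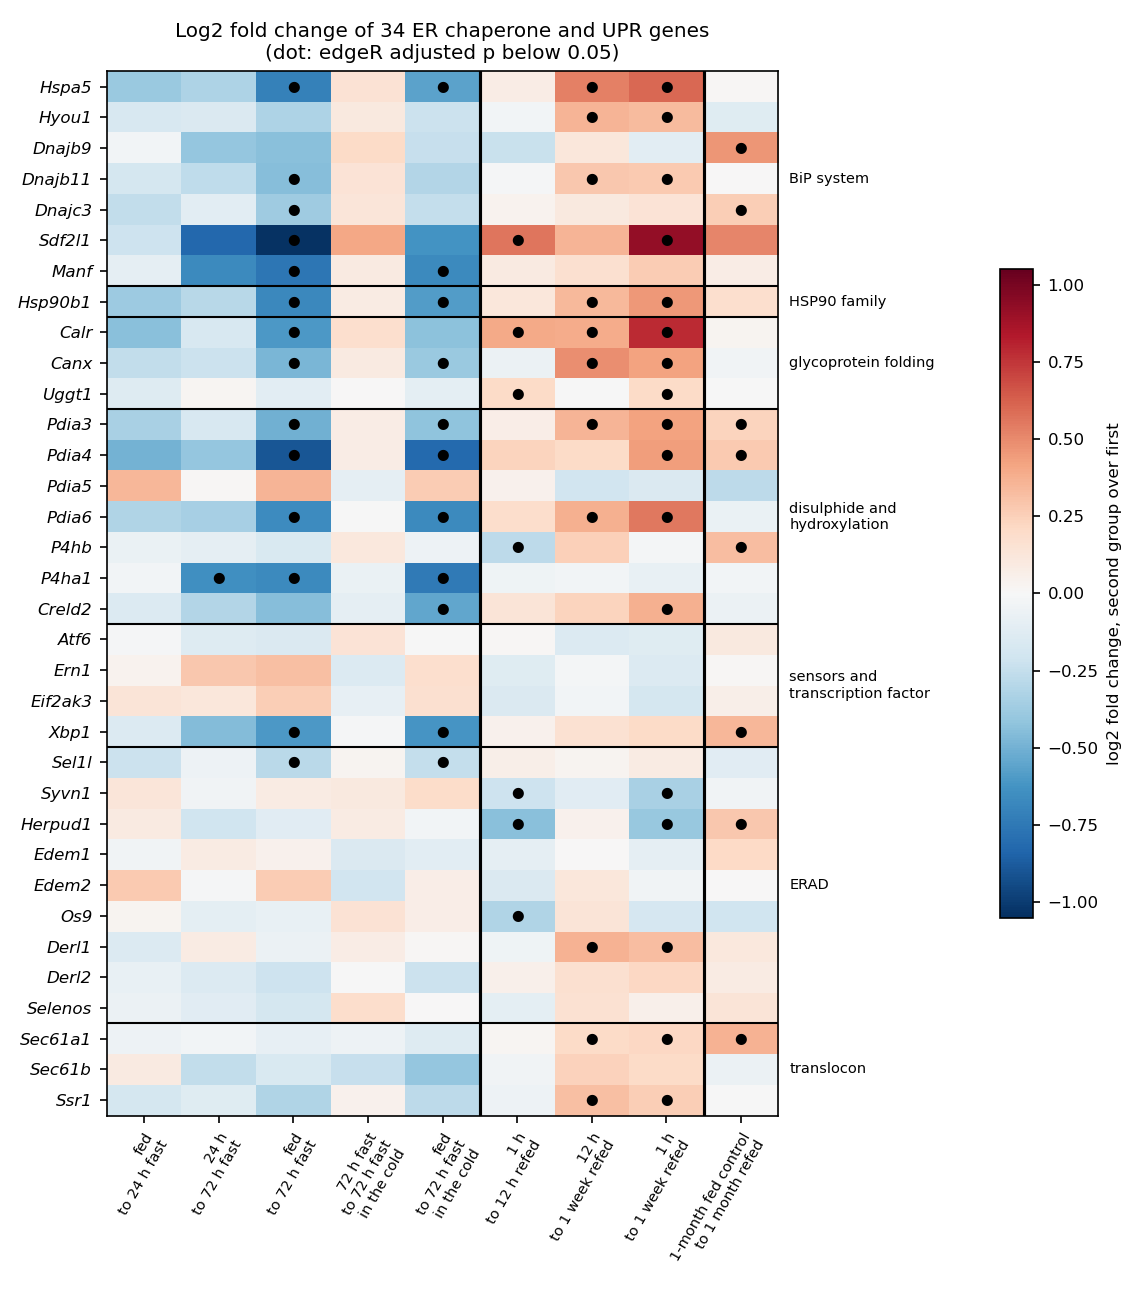
Log2 fold change (second group over first) of the 34 genes, in rows ordered by role, in the 9 comparisons, in columns parted by count table, with a dot where the edgeR adjusted p was below 0.05. Blue cells are lower and red cells higher in the second group: 14 genes carry a dot for fed to 72 h fast, all lower, and 15 of the 17 dots for 1 h to 1 week of refeeding are higher.

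After 24 h without food no member was called, beside 0.0343% of the 20408 genes tested (0.0245% higher), and DESeq2 called 1 member, Pdia4. An unadjusted p below 0.05 was reached by 9 of 34 members and by 2118 of the 20408 genes. The fold change was below 0 for 26 of 34 members, with a median of -0.11, while 49.2% of all genes were below 0 with a median of 0.00. Hspa5, which encodes BiP (ENSMUSG00000026864, GRCm38 chromosome 2, 34771970 to 34777547), stood at 283, 297 and 222 CPM in fed libraries 1 to 3 and at 168, 267 and 178 CPM in 24 h libraries 1 to 3. Its 24 h library 2 lay among the fed libraries, and the other 24 h libraries lay below them (log2 fold change -0.39 ± 0.17, adjusted p = 0.460). That library was the highest of its group for 26 of 34 members, as it was for 44.2% of all genes tested, and its summed liver markers were 217 CPM against 65.4 and 82.8 CPM in the other 24 h libraries.

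Between 24 h and 72 h of fasting 1 of 34 members was called, beside 1.63% of all genes. P4ha1, a catalytic subunit of collagen prolyl 4-hydroxylase (chromosome 10, 59323296 to 59373304), stood at 61.9, 60.2 and 59.9 CPM at 24 h and at 38.0, 40.9 and 37.4 CPM at 72 h. The groups were well apart, and P4ha1 fell 1.57-fold (log2 fold change -0.65 ± 0.09, adjusted p = 0.00929). The call was lost without 72 h library 2 or 3. Median change over the 34 members was -0.15, and 28 of them were below 0, while 49.5% of all genes were below 0 with a median of 0.00. Markers moved as well: 8 of 12 striatal neuron markers were called lower (summed 1371 to 1459 CPM at 24 h and 570 to 688 CPM at 72 h). So were 2 of 14 endothelial markers, and 1 of 10 oligodendrocyte markers was called higher. Liver markers had a median of -5.06 with none called. The part of the markers was not tested here.

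From fed to 72 h, 14 of 34 members were called lower and none higher, beside 7.78% of all genes called lower and 7.28% called higher. The members' median log2 fold change was -0.30, against 0.01 over all genes, and 28 members were below 0. For each of the 14 called members the fed and the 72 h libraries did not overlap. The same held for every called member in the fasting and refeeding tables, so a lack of overlap adds nothing to a call. Its share over all genes was not counted. In bulk tissue fewer cells of a type and less RNA per cell cannot be told apart.

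In the BiP system all 7 genes were below 0 and 5 were called. Hspa5 went from 283, 297 and 222 CPM in fed libraries to 171, 178 and 141 CPM at 72 h, a 1.64-fold fall (-0.71 ± 0.17, adjusted p = 0.0224). Manf, a secreted neurotrophic factor that binds BiP (chromosome 9, 106838312 to 106891979), went from 29.9, 33.4 and 24.7 CPM to 17.2, 18.4 and 16.4 CPM. Its fall was 1.69-fold (-0.76 ± 0.16, adjusted p = 0.0158). Sdf2l1, a partner of the BiP cycle (chromosome 16, 17130138 to 17132383), fell 2.06-fold from 4.71 ± 1.06 to 2.29 ± 0.771 CPM (SD, n = 3 each, -1.04 ± 0.28, adjusted p = 0.0317). The co-chaperones Dnajb11 and Dnajc3 fell by 0.45 ± 0.13 and 0.37 ± 0.10. Hyou1, the nucleotide exchange factor of BiP (-0.32 ± 0.13, adjusted p = 0.0979), and the co-chaperone Dnajb9 (-0.44 ± 0.18, adjusted p = 0.100) were not called.

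Hsp90b1, the Hsp90 of the ER (GRP94, chromosome 10, 86690209 to 86705509), stood at 214, 223 and 178 CPM in fed libraries and at 134, 138 and 113 CPM at 72 h. The lowest fed library was above the highest 72 h library, and the fall was 1.60-fold (-0.68 ± 0.13, adjusted p = 0.0124). Among the lectin chaperones Calr fell 1.52-fold (-0.60 ± 0.17, adjusted p = 0.0340) and Canx 1.40-fold (-0.48 ± 0.13, adjusted p = 0.0283). Uggt1, which marks unfolded glycoproteins for another round, was not called (-0.11 ± 0.07, adjusted p = 0.307).

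Of the 7 genes for disulphide bonds and hydroxylation 4 were called lower. Pdia4, a protein disulphide isomerase (ERp72, chromosome 6, 47796141 to 47813430), had 62.8, 61.9 and 52.3 CPM when fed, against 32.5, 34.6 and 28.0 CPM after 72 h. Its fall of 1.86-fold (-0.90 ± 0.12, adjusted p = 0.00500) was larger than that of any other called member except Sdf2l1. Pdia6, another isomerase (chromosome 12, 17266545 to 17284770), went from 85.5, 88.1 and 74.8 CPM to 54.5, 55.7 and 47.0 CPM (-0.66 ± 0.12, adjusted p = 0.00980). P4ha1 had 60.5, 56.9 and 67.7 CPM when fed, against 38.0, 40.9 and 37.4 CPM after 72 h (-0.67 ± 0.09, adjusted p = 0.00500). Pdia3, the isomerase that works with calnexin and calreticulin, fell by 0.50 ± 0.13. P4hb, an isomerase and the beta subunit of prolyl 4-hydroxylase, stood at 79.7 ± 13.0 and 71.2 ± 4.59 CPM (SD, n = 3 each) and was not called, nor were Creld2 (-0.45 ± 0.16, adjusted p = 0.0661) and Pdia5 (0.35 ± 0.19, adjusted p = 0.210).

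Xbp1, the transcription factor of the IRE1 branch (chromosome 11, 5520659 to 5525893), stood at 68.9, 73.7 and 60.2 CPM when fed and at 43.8, 48.8 and 40.9 CPM in 72 h libraries. It fell 1.52-fold (-0.60 ± 0.16, adjusted p = 0.0304). Of 9 genes of ER-associated degradation 1 was called, Sel1l, the adaptor of the HRD1 ligase (1.22-fold lower, -0.28 ± 0.08, adjusted p = 0.0337), and the median of the 9 was -0.08. None of the 3 translocon genes was called, with Ssr1 at -0.32 ± 0.11 (adjusted p = 0.0678).

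The count of 14 depended on single libraries. It became 3 without fed library 2 or without 72 h library 3, 5 without fed library 1, 6 and 7 without 72 h libraries 2 and 1, and 0 with 1 surrogate variable in the fit. Pdia4, Pdia6 and P4ha1 were called in each of the 6 fits that left out a library, and Hspa5 in 1 of them, at a log2 fold change between -0.83 and -0.63.

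Markers of other cell types moved with this fall. Called lower from fed to 72 h were 9 of 14 endothelial markers (summed 404 to 438 CPM when fed and 289 to 299 CPM at 72 h), 8 of 12 striatal neuron markers (926 to 1484 and 570 to 688 CPM) and 6 of 13 smooth muscle and pericyte markers (240 to 294 and 126 to 174 CPM). So were 5 of 6 blood markers (8.46 to 18.2 and 1.20 to 2.95 CPM), 6 of 12 choroid plexus markers (72.5 to 290 and 62.5 to 71.8 CPM) and 2 of 10 astrocyte markers (4455 to 5609 and 3769 to 3941 CPM). Of microglial markers 3 of 9 were lower (192 to 249 and 143 to 176 CPM), and of meningeal fibroblast markers 3 of 8 (96.1 to 152 and 30.4 to 107 CPM). Of liver markers 11 of 16 were lower, with 13.7, 1200 and 189 CPM in fed libraries 1 to 3 and 8.61 to 11.1 CPM at 72 h, where Cyp3a11, Fgb and Mup3 were at 0. Of skeletal muscle markers 5 of 9 were lower, and they summed to 38.2, 1486 and 37.3 CPM in fed libraries 1 to 3, and Acta1 was at 0 in both groups. With fed libraries 2 and 3 both left out, an alternative chosen after seeing the data that assumes the lone fed library to vary like the other groups, 2 of the 14 members, P4ha1 and Pdia4, were called, and Hspa5 had -0.80 (adjusted p = 0.0696). The part of the markers in the result was not tested.

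From 72 h fast to 72 h fast in the cold edgeR called none of the 34 members and 0% of all genes (at an unadjusted p below 0.05 there were 1296 genes and no member), while 57 genes and no member were called by DESeq2. The interval from -0.25 to 0.41 held all members' log2 fold changes, with a median of 0.08, and 22 of 34 were above 0. Hspa5 stood at 188, 164 and 192 CPM in the cold libraries, overlapping the 72 h libraries. A p above the threshold does not show that cold left these genes as they were.

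From fed to 72 h in the cold 11 members were called lower and none higher, beside 9.16% of all genes called lower and 8.78% called higher. The fed libraries are those of the comparison above, so the 2 results are not independent. P4ha1 had 33.0, 39.5 and 38.3 CPM in the cold (log2 fold change -0.74 ± 0.09, adjusted p = 0.00187), Pdia4 31.48, 32.05 and 36.72 CPM (-0.82 ± 0.12, adjusted p = 0.00322) and Pdia6 52.7, 53.6 and 50.3 CPM (-0.66 ± 0.12, adjusted p = 0.00624). Hsp90b1 had 132, 127 and 150 CPM (-0.59 ± 0.13, adjusted p = 0.0148), Manf 15.95, 19.50 and 19.98 CPM (-0.67 ± 0.16, adjusted p = 0.0187) and Xbp1 43.7, 45.4 and 43.1 CPM (-0.62 ± 0.16, adjusted p = 0.0239). All of these lay below each fed library. Canx, Creld2, Hspa5, Pdia3 and Sel1l were the others called, at log2 fold changes between -0.56 and -0.25. The count became 3 without fed library 2 or cold library 1, 4 without fed library 1, and 5 and 6 without cold libraries 3 and 2. Without fed library 3 it rose to 13, and with 1 surrogate variable it was 1. Markers moved here too: called lower were 10 of 14 endothelial (246 to 301 CPM in the cold), 8 of 13 smooth muscle and pericyte (113 to 147 CPM), 6 of 8 meningeal fibroblast (31.2 to 54.2 CPM), 7 of 12 striatal neuron (677 to 974 CPM) and 6 of 12 choroid plexus markers (47.0 to 72.7 CPM). So were 4 of 6 blood (2.02 to 3.39 CPM), 13 of 16 liver (8.13 to 9.10 CPM), 6 of 9 skeletal muscle (23.5 to 50.8 CPM) and 3 of 9 microglial markers (142 to 194 CPM), against the fed sums above. Their part in the result was not tested.

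**Figure D2:**
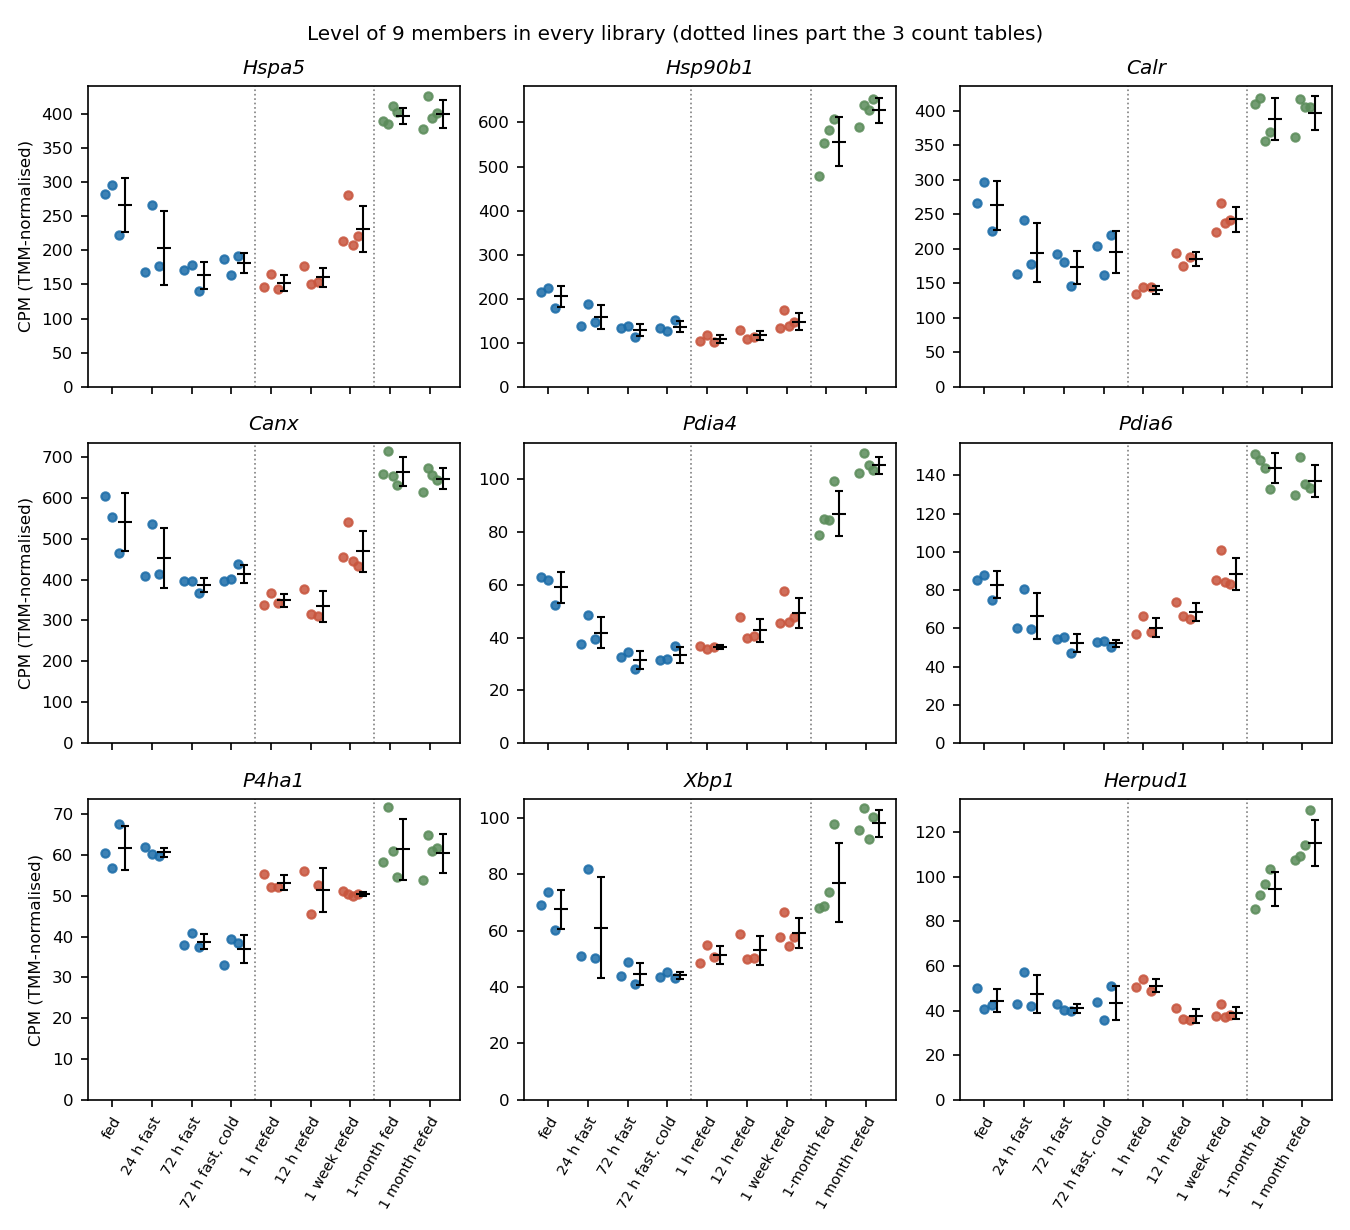
CPM of 9 members in every library (points) with the mean and SD of each group (bars), by group along the x axis, with dotted lines between the 3 count tables. Hspa5, Hsp90b1, Calr, Canx, Pdia4 and Pdia6 are lower at 72 h than in the fed libraries and higher at 1 week than at 1 h of refeeding, while Herpud1 is highest at 1 h within the refeeding table. Levels on the 2 sides of a dotted line are not comparable.

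Between 1 h and 12 h of refeeding, of 34 members 3 were called higher and 4 lower, beside 7.08% and 7.14% of all genes, and the median was 0.00. These counts are near the shares of all genes, so the roles of the called members are a description only. Calr, the lumenal lectin chaperone calreticulin (chromosome 8, 84841850 to 84846934), stood at 134, 144 and 144 CPM at 1 h and 193, 175 and 188 CPM at 12 h. It rose 1.32-fold with no overlap between the groups (0.40 ± 0.07, adjusted p = 0.00309). Sdf2l1 rose from 3.57, 3.69 and 3.29 CPM to 5.23, 5.18 and 5.19 CPM (0.57 ± 0.13, adjusted p = 0.00968). Uggt1 rose from 86.8, 87.5 and 93.8 CPM to 105, 100 and 103 CPM (0.20 ± 0.06, adjusted p = 0.0302). The genes called higher were 2 of the glycoprotein folding cycle and 1 of the BiP system.

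Among the few genes called lower at 12 h were 3 of the 9 of degradation. Herpud1, a membrane protein of the HRD1 complex that is induced by ER stress (chromosome 8, 94386438 to 94395377), had 50.5, 54.2 and 48.9 CPM at 1 h and 41.3, 36.1 and 35.8 CPM at 12 h. It fell 1.36-fold (-0.44 ± 0.08, adjusted p = 0.00237), and each 12 h library was below each 1 h library. Os9, a lectin that hands misfolded glycoproteins to the ligase, had 116, 112 and 106 CPM at 1 h and 89.1, 92.3 and 86.3 CPM at 12 h (-0.32 ± 0.07, adjusted p = 0.00965). Syvn1, the ubiquitin ligase HRD1 itself, had 49.7, 53.7 and 49.9 CPM at 1 h and 42.0, 43.3 and 46.2 CPM at 12 h (-0.22 ± 0.06, adjusted p = 0.0281). P4hb fell by 0.27 ± 0.09 (adjusted p = 0.0440). Hspa5 was at 147, 166 and 144 CPM at 1 h and 177, 151 and 154 CPM at 12 h, and the groups overlapped (0.08 ± 0.11, adjusted p = 0.677). Of the fits that left out a library, those lacking 1 h library 2, 12 h library 2 or 12 h library 3 called 4 members in place of 7, as did a fit of these 2 groups alone, and Calr, Sdf2l1 and Herpud1 were called in each of the 6 fits that left out a library.

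From 12 h to 1 week 11 members were called higher and none lower, beside 6.56% and 5% of all genes. The median was 0.17 over the members and -0.01 over all genes, and 27 of 34 were above 0. Hspa5 stood at 214, 282, 209 and 221 CPM in 1-week libraries 1 to 4, all above the 12 h libraries (1.44-fold, 0.53 ± 0.10, adjusted p = 0.00609). Canx, the membrane lectin calnexin (chromosome 11, 50293961 to 50325673), went from 377, 315 and 310 CPM at 12 h to 455, 541, 446 and 433 CPM at 1 week (0.49 ± 0.09, adjusted p = 0.00369). Calr went on to 224, 267, 238 and 242 CPM (0.39 ± 0.07, adjusted p = 0.00325). The 3 lectin and BiP genes thus had no 1-week library inside the 12 h range.

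Derl1, a channel protein of ER-associated degradation (chromosome 15, 57869502 to 57892448), had 56.6, 57.1 and 58.1 CPM at 12 h and 72.9, 82.5, 71.7 and 68.7 CPM at 1 week (0.37 ± 0.07, adjusted p = 0.00609). Hyou1 had 147, 142 and 140 CPM at 12 h and 186, 203, 178 and 167 CPM at 1 week (0.36 ± 0.07, adjusted p = 0.00756). Pdia6 had 73.9, 66.7 and 65.0 CPM at 12 h and 85.4, 101, 84.3 and 83.3 CPM at 1 week (0.37 ± 0.08, adjusted p = 0.0101). Each of these genes was higher in all 4 week libraries than in any 12 h library. Dnajb11, Hsp90b1, Pdia3, Sec61a1, the pore of the translocon, and Ssr1, a subunit of the translocon-associated complex, were the others called, at 0.20 to 0.36. Leaving out 12 h library 3 gave 4 calls, leaving out 12 h library 2 gave 6, leaving out 12 h library 1 gave 15, and 2 were made (Calr and Canx) with 1 surrogate variable. Calr, Canx, Derl1 and Hspa5 were called in each of the 7 fits that left out a library.

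Over the whole span from 1 h to 1 week 15 members were called higher and 2 lower, beside 13.5% of all genes in each direction, and the members' median was 0.20 against 0.00 over all genes. Calr rose 1.73-fold, from 134, 144 and 144 CPM to 224, 267, 238 and 242 CPM (0.79 ± 0.07, adjusted p = 6.14e-06). Sdf2l1 rose 1.90-fold, to 6.01, 7.59, 6.43 and 6.68 CPM from the 1 h values above (0.92 ± 0.12, adjusted p = 9.00e-05). Pdia6 rose 1.46-fold, from 56.99, 66.36 and 57.88 CPM at 1 h (0.55 ± 0.08, adjusted p = 0.000249), and Hspa5 1.52-fold (0.60 ± 0.10, adjusted p = 0.000798). No library of either group fell inside the other's range for these genes. Against them Syvn1 fell to 41.1, 39.5, 41.5 and 39.7 CPM (-0.34 ± 0.06, adjusted p = 0.000709) and Herpud1 to 37.7, 43.0, 36.9 and 37.9 CPM (-0.40 ± 0.07, adjusted p = 0.00112).

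By role, 4 of 7 BiP system genes, Hsp90b1, all 3 glycoprotein folding genes, 4 of 7 disulphide and hydroxylation genes, 2 of 3 translocon genes and 1 of 9 degradation genes were called higher in that span, and 2 of 9 degradation genes lower. The disulphide group was Pdia3, Pdia4, Pdia6 and Creld2, at 0.37 to 0.55. Leaving out a library gave between 14 and 19 calls, and 13 of the 17 were called in each of the 7 fits. With 1 surrogate variable 17 members were called. Beside this, 5 of 6 blood markers (68.6 to 124 CPM at 1 h, 402 to 1259 CPM at 1 week), 5 of 8 meningeal fibroblast markers (37.9 to 84.9 and 116 to 158 CPM) and 7 of 9 microglial markers (148 to 156 and 181 to 214 CPM) were called higher, with 1 blood marker, Alas2, 1 microglial marker, P2ry12, and 2 meningeal markers, Igf2 and Ogn, at 0 in both groups. Of 10 oligodendrocyte markers 6 were higher and 3 lower, and of 10 astrocyte markers 5 were higher and 1 lower. From 12 h to 1 week 5 of 6 blood and 4 of 8 meningeal markers were higher, from 76.8 to 120 and 77.9 to 89.6 CPM at 12 h. All 12 striatal neuron markers were below 0 there, with a median of -0.86 and none called. They summed to 1618 to 2087 CPM at 12 h and 614 to 1706 CPM at 1 week. Of 3 pituitary markers tested 1 was called higher (all pituitary markers summed 0.884 to 62.1 CPM at 12 h and 5.13 to 162 CPM at 1 week). In the same interval 6 of 10 astrocyte markers (median 0.34, summed 2928 to 3525 CPM at 12 h and 3248 to 3653 CPM at 1 week) and 5 of 10 oligodendrocyte markers (median 0.20, 2991 to 3519 and 3344 to 3599 CPM) were higher, and of 14 endothelial markers 1 was higher and 4 were lower (168 to 234 and 164 to 176 CPM). From 1 h to 12 h 11 of 12 striatal neuron markers were above 0 with none called (summed 837 to 1900 CPM at 1 h). In that step 3 of 9 microglial markers were higher, 3 of 10 astrocyte markers lower, and 3 of 10 oligodendrocyte markers higher and 4 lower. Their part in the result was not tested.

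**Figure D3:**
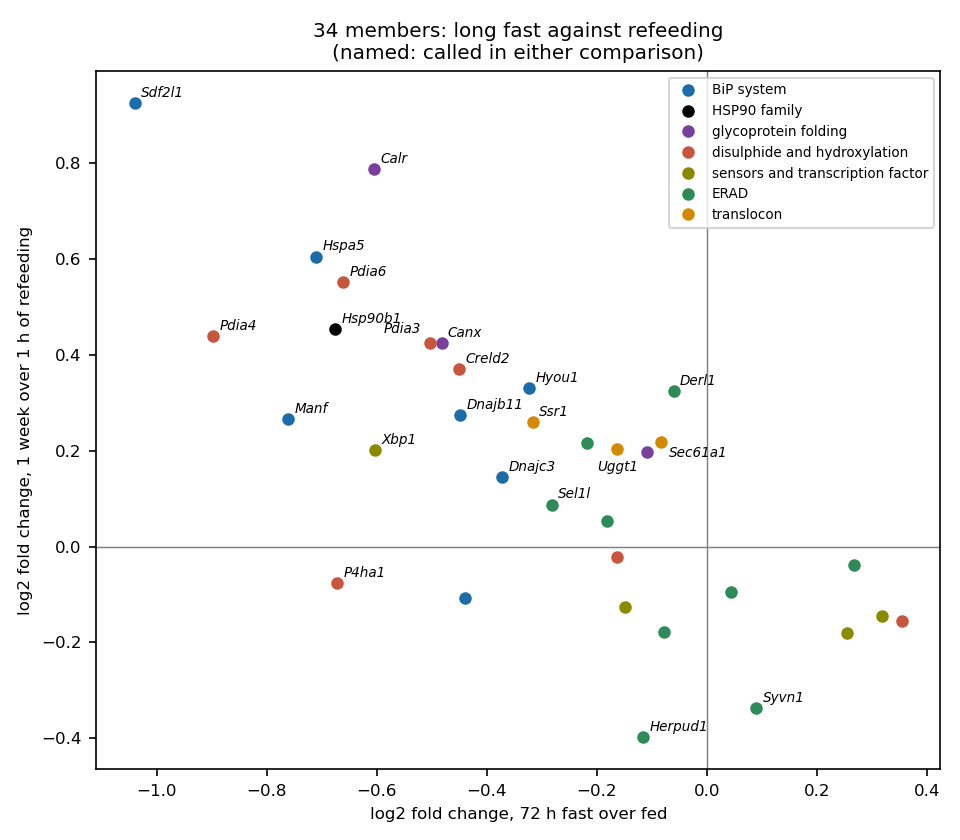
Log2 fold change of the 34 genes from fed to 72 h fast (x axis) and from 1 h to 1 week of refeeding (y axis), each point 1 gene, coloured by role, with the names of genes called in either comparison. Of the 34 genes 22 lie in the upper left, lower after the fast and higher after refeeding, and P4ha1 lies apart at the lower left. The share of all genes in the upper left was not counted.

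The fast and the later refeeding share no library, and 9 members were called in both, in opposite directions. Of all genes, 7.78% were called lower from fed to 72 h and 13.5% higher from 1 h to 1 week. The share of all genes called in both was not counted. Across the 34 genes the log2 fold changes of fed to 72 h and of 1 h to 1 week had a Pearson r of -0.74 and a Spearman rho of -0.75, while over 19516 genes tested in both the rho was -0.08. Genes are not independent replicates, and the points of each axis share their libraries, so these are descriptions. Of the 14 members called lower after the fast 9 (64.3%) were among the 15 called higher from 1 h to 1 week, and the 9 were 60% of those 15: Hspa5, Dnajb11, Sdf2l1, Hsp90b1, Calr, Canx, Pdia3, Pdia4 and Pdia6. Dnajc3, Manf, P4ha1, Xbp1 and Sel1l were called lower in the fast but not higher in this span. P4ha1 had 55.4, 52.1 and 52.1 CPM at 1 h, and 51.2, 50.3, 49.9 and 50.5 CPM at 1 week (-0.08 ± 0.07, adjusted p = 0.415). Whether the level at 1 h of refeeding equals that at 72 h was not analysed here, since the groups are in different tables.

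At 1 month Sec61a1, P4hb and 6 other members were higher in the refed mice than in their controls. Of 34 members 8 were called higher and none lower, beside 6.37% and 3.76% of the 14867 genes tested (10.1% in all), and the median was 0.05. Hspa5 stood at 391, 386, 412 and 403 CPM in control libraries 2 to 5 and 378, 427, 395 and 402 CPM in refed libraries 1, 2, 4 and 5 (0.01 ± 0.06, adjusted p = 0.945). The groups overlapped. Calr, Canx and Pdia6 had 0.03, -0.04 and -0.07, with none called.

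Sec61a1 (chromosome 6, 88503579 to 88518905) had 54.9, 51.2, 49.2 and 59.0 CPM in controls and 66.5, 75.4, 67.2 and 67.5 CPM in refed libraries (1.29-fold higher, 0.37 ± 0.08, adjusted p = 0.00792). P4hb (chromosome 11, 120560298 to 120573253) had 113, 122, 126 and 126 CPM in controls and 142, 168, 153 and 147 CPM in refed libraries (1.25-fold, 0.33 ± 0.07, adjusted p = 0.00794). These groups did not overlap, and both genes were called in each of the 8 fits that left out a library. Pdia4 had 78.9, 85.1, 84.7 and 99.3 CPM in controls and 103, 110, 105 and 103 CPM in refed libraries (0.28 ± 0.08, adjusted p = 0.0301). Herpud1 had 85.5, 91.9, 96.8 and 103 CPM against 107, 109, 114 and 130 CPM (0.29 ± 0.08, adjusted p = 0.0315). For both genes the lowest refed library lay only just above the highest control.

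Dnajc3, a BiP co-chaperone that also inhibits PERK, had 60.7, 64.1, 63.6 and 59.9 CPM in controls and 73.3, 81.5, 68.6 and 73.7 CPM in refed libraries (0.26 ± 0.07, adjusted p = 0.0356). Pdia3 had 247, 267, 282 and 291 CPM in controls and 303, 339, 315 and 323 CPM in refed libraries (0.24 ± 0.07, adjusted p = 0.0397). Dnajb9 rose by 0.46 ± 0.13 (adjusted p = 0.0437) and Xbp1 by 0.35 ± 0.10 (adjusted p = 0.0383), with overlapping libraries in both. In place of 8, 2 or 3 members were called when any 1 of the other 7 libraries was left out, 10 (9 higher and 1 lower) without control library 5, and 0 with 1 surrogate variable.

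Other cell types differed at 1 month as well. Of 10 meningeal fibroblast markers 9 were called higher (median 2.84, summed 90.4 to 231 CPM in controls and 607 to 1021 CPM in refed libraries). So were 7 of 14 endothelial markers (456 to 501 and 577 to 729 CPM), 3 of 10 microglial (280 to 348 and 373 to 404 CPM) and 3 of 10 oligodendrocyte markers (1943 to 2679 and 2676 to 4096 CPM), while of 12 smooth muscle and pericyte markers 4 were higher and 1 lower (283 to 333 and 420 to 640 CPM). Summed liver markers were 105 CPM in refed library 2 and at most 10.4 CPM in the other 1-month libraries. The part of these markers in the 8 calls was not tested.

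Atf6, Ern1, which encodes IRE1, and Eif2ak3, which encodes PERK, were called in none of the 9 comparisons. Atf6 (chromosome 1, 170704674 to 170867771) had 83.4, 87.8 and 84.6 CPM in fed, 87.1, 82.0 and 84.4 CPM in 24 h, 75.6, 76.1 and 79.0 CPM in 72 h and 83.1, 91.0 and 80.9 CPM in cold libraries. Its 72 h libraries were the lowest of the table, without passing the test (fed to 72 h, -0.15 ± 0.08, adjusted p = 0.183). In refeeding it had 85.3, 68.9 and 78.6 CPM at 1 h, 80.9, 74.8 and 79.4 CPM at 12 h and 67.5, 62.8, 76.9 and 77.1 CPM at 1 week, and these groups overlapped. At 1 month it had 33.1, 37.5, 39.1 and 38.4 CPM in controls and 40.8, 39.6, 36.5 and 42.0 CPM in refed libraries.

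Ern1 (chromosome 11, 106394650 to 106487852) had 22.6, 24.3 and 28.0 CPM in fed, 27.4, 20.9 and 28.4 CPM in 24 h, 30.6, 32.4 and 30.3 CPM in 72 h and 29.3, 30.9 and 24.2 CPM in cold libraries. Each 72 h library was above each fed library, at 0.32 ± 0.13 (adjusted p = 0.109). In refeeding Ern1 had 32.6, 36.6 and 34.1 CPM at 1 h, 28.4, 33.3 and 32.7 CPM at 12 h and 31.02, 29.68, 32.03 and 31.70 CPM at 1 week. At 1 month it had 41.9, 40.1, 38.7 and 29.5 CPM in controls and 39.9, 36.2, 33.5 and 41.6 CPM in refed libraries. Each 1-week library was thus below each 1 h library, and the 1-month groups overlapped.

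Eif2ak3 (chromosome 6, 70844515 to 70905245) had 32.3, 27.1 and 28.4 CPM in fed, 32.2, 32.5 and 31.5 CPM in 24 h, 36.0, 32.3 and 36.5 CPM in 72 h and 30.8, 32.6 and 35.1 CPM in cold libraries. The fed and 72 h libraries overlapped at 32.3 CPM, and the difference was 0.25 ± 0.09 (adjusted p = 0.0783; adjusted p = 0.0456 when only genes with a mean of at least 1 CPM were tested). In refeeding it had 32.7, 33.0 and 32.9 CPM at 1 h, 29.4, 28.7 and 31.0 CPM at 12 h and 30.4, 26.9, 30.5 and 28.2 CPM at 1 week (1 h to 1 week, -0.18 ± 0.06, adjusted p = 0.0507). At 1 month it had 45.7, 47.0, 36.0 and 42.3 CPM in controls and 45.7, 43.5, 43.7 and 45.3 CPM in refed libraries. Both IRE1 and PERK genes thus had fold changes above 0 in the fast and below 0 in refeeding, and neither was called.

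Xbp1 alone of the UPR's own regulators among the members was called. At 24 h it had 51.0, 81.9 and 50.3 CPM, with library 2 above all fed libraries. In refeeding it had 48.7, 54.9 and 50.7 CPM at 1 h, 58.91, 49.97 and 50.09 CPM at 12 h and 57.6, 66.7, 54.3 and 57.7 CPM at 1 week, and the groups overlapped (1 h to 1 week, 0.20 ± 0.08, adjusted p = 0.0751). At 1 month it had 67.9, 68.8, 73.7 and 97.6 CPM in controls and 95.7, 103, 92.5 and 100 CPM in refed libraries, so control library 5 lay among the refed ones. Besides the 3 sensors, Pdia5, Edem1, Edem2, Derl2, Selenos and Sec61b were called in no comparison, which makes 9 of 34.

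Other genes of the pathway were read from lists, whose counts stand beside 7.28% of all genes called higher and 7.78% called lower from fed to 72 h, and 13.5% called in each direction from 1 h to 1 week. Of 34 other ER folding genes tested 5 were lower and 3 higher from fed to 72 h, with Rcn1 (-0.59 ± 0.13) and Tmx3 (-0.41 ± 0.11) lower and Sil1, a nucleotide exchange factor of BiP, higher (0.68 ± 0.16). From 1 h to 1 week 12 were higher and none lower, among them Rcn1 (0.70 ± 0.08), Serpinh1, the collagen chaperone Hsp47 (0.64 ± 0.09), and Sdf2 (0.52 ± 0.08). N-glycosylation genes had 5 of 14 lower in the fast (median -0.27), among them Magt1 (-0.51 ± 0.12), Ostc (-0.58 ± 0.14) and Ost4 (-0.77 ± 0.22), and 7 of 15 higher from 1 h to 1 week, among them Ganab (0.43 ± 0.06), Mlec (0.44 ± 0.07) and Stt3a (0.40 ± 0.07). Of 23 other translocation genes 9 were lower and 1 higher in the fast (median -0.38), and 6 were higher from 1 h to 1 week. Among the 9 were Srp54a (-0.53 ± 0.12) and Srp54b (-0.52 ± 0.12), near-identical copies between which the split of reads is uncertain, and Srp72 (-0.44 ± 0.10). Of 21 other degradation genes 1 was higher in the fast, and 1 was higher and 3 lower from 1 h to 1 week, with Vcp at 0.31 ± 0.07 and Herpud2 at -0.22 ± 0.06.

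Of 25 PERK and ATF4 target genes 2 were lower from fed to 72 h (median -0.22), a share near that of all genes called lower, Slc7a11 (-0.84 ± 0.15) and Vldlr (-0.52 ± 0.09). From 1 h to 12 h of refeeding 8 were lower and 1 higher (7.14% and 7.08% of all genes), and from 12 h to 1 week 9 were higher and 1 lower (6.56% and 5% of all genes), in comparisons that share the 12 h libraries. Atf4 itself fell from 59.99 ± 6.88 CPM at 1 h (SD, n = 3) to 42.7 ± 1.61 CPM at 12 h (n = 3, -0.49 ± 0.08, adjusted p = 0.00128) and stood at 52.0 ± 1.51 CPM at 1 week (n = 4, 0.28 ± 0.07 from 12 h, adjusted p = 0.0219). From fed to 72 h it was not called (-0.34 ± 0.17, adjusted p = 0.167). Ddit3, the stress-induced factor CHOP, was called in none of the 9 comparisons, with 8.57 ± 0.651 CPM when fed and 7.57 ± 0.969 CPM at 72 h and 10.6 ± 1.47 CPM at 1 h and 10.7 ± 1.04 CPM at 1 week. The symbol Ddit3 matched 2 Ensembl identifiers, and these values are those of ENSMUSG00000025408 only. Cytosolic heat shock chaperones had 11 of 19 lower from fed to 72 h (median -0.59), among them Chordc1 (-0.79 ± 0.10), Hsph1 (-0.77 ± 0.16) and Cryab (-0.99 ± 0.21), and 12 higher and 5 lower from 1 h to 1 week. At 1 month 5 of 34 other folding genes were higher and 2 lower (6.37% and 3.76% of all genes). Rcn3 was at 1.68 ± 0.20, Serpinh1 at 0.92 ± 0.13 and Gpx8 at 1.30 ± 0.20. In that comparison 9 of 10 meningeal fibroblast markers were also called higher (median 2.84), and their part in these values was not tested.

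The members with the ER stress response element, shown above for 6 of 8, can be read as a group. From fed to 72 h 6 of the 8 were called lower, with a median of -0.54, against 6 of the 19 members whose promoters held none of the 3 motifs, with a median of -0.18. From 1 h to 1 week 6 of the 8 were higher and Syvn1 lower (median 0.44), against 5 of 19 higher (median 0.05). At 1 month 1 of the 8, Dnajc3, and 5 of the 19 were higher. Over all genes tested, 7.78% were called lower from fed to 72 h, 13.5% higher from 1 h to 1 week and 6.37% higher at 1 month. These counts are a description, and whether the element took part was not tested. Syvn1 had log2 fold changes of 0.09 in the fast and -0.34 from 1 h to 1 week.

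**Figure D4:**
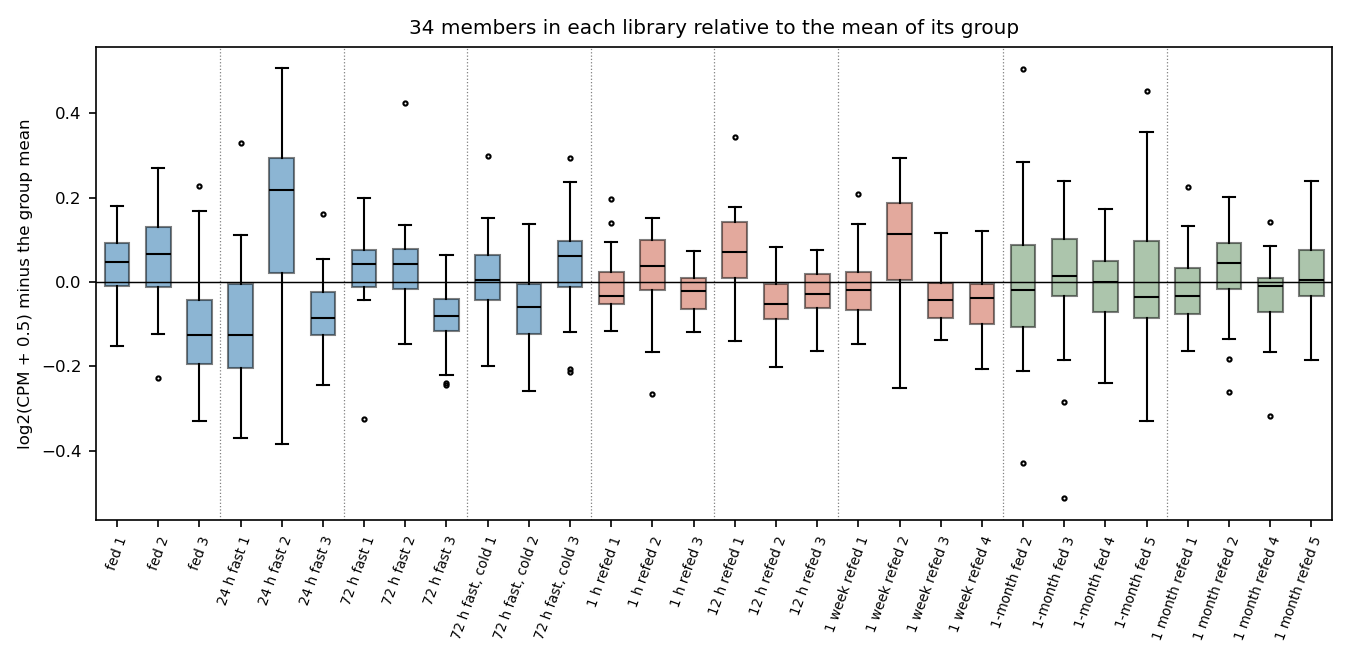
Difference of each member's log2(CPM + 0.5) from the mean of its group, as a box per library over the 34 genes (line, median; box, quartiles; whiskers, up to 1.5 times the box; circles, genes beyond). The box of 24 h library 2 has its median at 0.22 and that of 1-week library 2 at 0.11, above the other libraries of their groups.

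The members varied together between libraries of 1 group. In 1-week library 2 the members' median lay 0.11 above the group mean on the log2 scale, and 20 of 34 members were highest there, against 30.2% of all genes. In 12 h library 1 25 of 34 members were highest, against 37.8% of all genes, and in fed library 3 24 of 34 were lowest, against 40% of all genes. In 72 h library 3 26 of 34 were lowest, against 33.3% of all genes. Since members shift together in a library, counts of members are not counts of independent events. Across the 34 members the Spearman rho of the fold change with the length of the gene was 0.38 from fed to 72 h and -0.36 from 1 h to 1 week, against 0.23 and 0.07 over all genes, and whether length took part was not tested.

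In the authors' deposited table of 1 h against 12 h of refeeding 1 of 34 members, Calr, had an adjusted p below 0.05 (0.0483), beside 2.35% of its genes. No member did in the authors' deposited tables of fed against 24 h, 24 h against 72 h, 72 h against the cold, 12 h against 1 week, or 1 month against control, beside 0.137%, 2.01%, 0.162%, 1.36% and 2.65% of their genes. The fits above called 11 members from 12 h to 1 week and 8 at 1 month. None of the authors' comparisons read here was of fed with 72 h or of 1 h with 1 week.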

How the data were processed

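RNA-seq of 30 mouse hypothalamus libraries in 9 groups was read from 3 tables of gene counts that the authors deposited. Per the labels' protocols, libraries were made from total RNA depleted of ribosomal RNA with a directional kit. Per the submitters' processing notes, HISAT2, featureCounts and edgeR were used with mm10, with no versions. The sources used here do not give the strand and overlap settings of the counting. The authors also deposited log2 fold changes and adjusted p-values for single comparisons, which are quoted only by name. A further 2 columns of counts matched no sample and were not used.

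Counts of all groups of a table were fitted together with edgeR 4.0.16 in R 4.3.3 (limma 3.58.1; filterByExpr, TMM, robust quasi-likelihood F test, prior count 0.125) with group as the term, and p-values were adjusted by Benjamini-Hochberg over all genes tested. Alternatives were DESeq2 1.42.0, RLE scaling, no filter, a mean of at least 1 CPM, the 2 groups alone, a replicate block, 1 surrogate variable (sva 3.50.0) and each library left out. The scripts were tested on simulated data. Promoter sequences are from RefSeq (GRCm38.p6), and gene positions from GENCODE on GRCm38. Values in every library are given for Hspa5, Xbp1, Atf6, Ern1 and Eif2ak3 and, in each comparison, for up to 6 called members of smallest adjusted p whose groups do not overlap; up to 3 called genes of smallest adjusted p may be named from each pathway list, with Atf4 and Ddit3 always named. The members and lists were chosen with earlier results of these data known.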

Additional observations from a re-analysis of the deposited data

Results flagged for a closer look

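In 6 of 102 member-by-group sets of 4 libraries, 1 library stood so far from the other 3 that its gap, as a share of the range of the 4, passed Dixon's 95% critical value; chance gives about 1 in 20. In 5 of the 6 it was 1-week library 2, which was the highest. There Pdia6 was at 101 CPM (83.3 to 85.4 CPM in the others), Pdia3 at 173 CPM (139 to 143 CPM) and Dnajb9 at 36.2 CPM (27.5 to 28.8 CPM). Herpud1 was at 43.0 CPM there (36.9 to 37.9 CPM) and Sel1l at 190.1 CPM (180.2 to 182 CPM). At 1 month Sec61a1 was at 75.4 CPM in refed library 2 (66.5 to 67.5 CPM in the other refed libraries).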

How the results depend on the processing

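No called member changed direction under any alternative that was run. Leaving out 1 library gave 3 to 17 called members from fed to 72 h, 3 to 13 from fed to the cold, 0 to 2 from 24 h to 72 h, 4 to 7 from 1 h to 12 h, 4 to 15 from 12 h to 1 week, 14 to 19 from 1 h to 1 week and 2 to 10 at 1 month. With 1 surrogate variable the counts were 0 from fed to 72 h, 1 from fed to the cold, 2 from 12 h to 1 week and 0 at 1 month. DESeq2 called 1 member from fed to 24 h and 4 from 24 h to 72 h, leaving out the filter on low counts gave 2 from 24 h to 72 h, and the 2 groups alone gave 4 from 1 h to 12 h. Without both fed libraries 2 and 3, chosen after seeing the data, 2 members were called from fed to 72 h and 3 from fed to the cold. The cause was not tested. Of 69 calls, 69 held with DESeq2, 67 with RLE, 60 with no filter and 27 with 1 surrogate variable.

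Libraries with the same number share only a number: their deviations from the group means correlated at -0.37 to 0.518 in the fasting table, -0.116 to 0.414 in the refeeding table and -0.067 to -0.016 in the 1-month table. With a replicate block 2 members were called from 24 h to 72 h and 1 at 1 month (Dnajb9; Sec61a1 and P4hb, called in every fit that left out a library, were not), and 57 of 69 calls held. Sdf2l1, at 48 to 116 counts in the 1-month libraries, is the least precisely counted member.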
